A study of Mus musculus with 56 samples.

Results

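The 12-h component of hepatic gene expression was measured in 56 livers and compared between mice fed by day (daytime-restricted feeding, DRF) and mice fed by night (nighttime-restricted feeding, NRF). The libraries were chosen by regimen, 28 of DRF and 28 of NRF, which is every library of the series, and 25413 of 25415 listed genes were tested. Cosine and sine terms with a period of 12 h were fitted beside 24-h terms in each regimen, and the difference of the 12-h terms between regimens was tested in the same fit. All animals were female C57BL/6J mice aged 9 weeks, kept in 12 h of light and 12 h of dark and held on their feeding regimen for 7 days. Both groups therefore had restricted access to food, and no group fed ad libitum was analysed here. Sampling covered ZT 0, 4, 8, 12, 16, 20 and 24 (zeitgeber time, counted in hours from lights on) with 4 mice per regimen and time. NRF gives food in the active phase of mice. A liver can be taken only once, so the replicates are different mice, and the labels mention no pooling.

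Rhythms of about 12 h, often called ultradian, are known in mouse liver for genes of protein folding and secretion. Newly made secretory proteins are folded in the endoplasmic reticulum (ER), and when unfolded proteins build up there, the unfolded protein response raises ER chaperones through the factors XBP1 and ATF6. In the cytosol, heat shock factor 1 (HSF1) does the same for heat shock proteins. A sine wave with the shorter period also arises as the second harmonic of any 24-h wave that is sharper or flatter than a sine. With sampling every 4 h, a gene that peaked in the morning and again in the evening and a gene with 1 sharp daily peak can both carry a 12-h component. Moving meals by 12 h moves a 12-h wave by a whole cycle, so a component timed by feeding and one timed by light would peak at the same clock times in both regimens and cannot be told apart by phase.

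Levels are given as scaled counts, obtained by undoing the logarithm in the deposited values, and tests used log2(scaled count + 1). The 12-h amplitude is the distance from the mean to the peak of the 12-h wave in log2 units, given with its standard error (SE). The recovered totals ran from 274 to 629 M (mega) counts per library, and replicates of a group correlated at 0.965 to 0.990 across genes over 84 pairs. Summed hepatocyte markers lay between 36895 and 68765 scaled counts in every library, while 10 Kupffer cell markers summed to at most 1372 and 10 stellate cell markers to at most 1012. The defining hepatocyte gene Alb was not analysed here. Among markers of 10 cell types few had a 12-h component, each in 1 regimen. Under DRF these were Hnf4a (1 of 9 hepatocyte markers tested) and Stab2 (1 of 10 for sinusoidal endothelium). Under NRF it was Cela1 (1 of 2 for exocrine pancreas), and no other marker was called. The 2 pancreas markers summed to between 1.8 and 5.1 scaled counts. Their sum had a 12-h amplitude of 0.09 ± 0.05 (SE) under DRF and 0.20 ± 0.05 under NRF. The 6 erythroid markers, of which 0 were called, summed to between 469 and 2041 scaled counts, and their sum had a 12-h amplitude of 0.37 ± 0.13 (SE) under DRF and 0.10 ± 0.11 under NRF. In bulk liver, fewer cells of a type and less RNA per cell cannot be told apart. NRF ZT16 replicate 3 and NRF ZT12 replicate 3 lay farthest from their group means, with root mean square deviations of 0.374 and 0.321 in log2 units against a median of 0.238 over NRF and 0.216 over DRF libraries.

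A 12-h component was more frequent under DRF than under NRF in this fit. It passed the test in 1193 genes under DRF (4.69% of all genes tested) and in 509 under NRF (2.0%; limma F test, Benjamini-Hochberg adjusted over all genes, threshold 0.05). At an unadjusted p under 0.05 the numbers were 4366 and 3551. Replicates spread more under NRF, where the median within-group SD was 0.142 against 0.110 in log2 units and 74.2% of genes had the larger SD. When each regimen was fitted alone, so that its own spread was used, 1628 genes (6.41%) were called under DRF and 193 (0.759%) under NRF. The NRF count fell to 311 without the 2 libraries farthest from their group means. It was 767 without NRF ZT16 replicate 4 and 326 without NRF ZT16 replicate 1, so single animals at that time move it by more than 1.5 times. The DRF count was 307 without the 7 DRF and 7 NRF libraries numbered replicate 1. These counts do not test whether a single gene differed between regimens.

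The component was small. Its median amplitude was 0.19 among genes called under DRF and 0.20 among those called under NRF, a peak-to-trough ratio of 1.30 and 1.32. Over all genes the median was 0.05 in each regimen. Over genes with a mean of at least 1 scaled count it was 0.088 under DRF and 0.080 under NRF. Most called genes also had a 24-h component, 870 of 1193 under DRF and 461 of 509 under NRF, where 35.3% and 45.1% of all genes did. The 12-h amplitude was at least as large as the 24-h amplitude in 587 of the DRF genes (49.2%). Over all genes under DRF this share was 30.8%. Under NRF it was so in 106 of the called genes (20.8%), below the 23.1% over all genes. As a description of shape, 522 DRF genes (43.8%) had exactly 2 maxima that stood 12 h apart among the 6 times of day, against 24.9% of all genes. The same shape was seen in 132 NRF genes (25.9%), against 22.5% of all genes. A single maximum was seen in 262 of the DRF genes and in 278 of the NRF genes. Thus 1 daily maximum was the more frequent shape among genes called under NRF. Over all 25413 genes a single maximum was seen in 7628 under DRF and in 11079 under NRF.

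Cytosolic chaperones held the largest share of members with a 12-h component under DRF. Of 22 genes listed as heat shock proteins and HSF1, 15 were called under DRF, all with a peak between 3.2 and 5.9 h after lights on and again 12 h later. Under NRF 5 were called, Hspa4l, Hsp90ab1, Hspb1, Stip1 and Ahsa1, and 0 of the 22 were called for the difference between regimens (limma, 4 at an unadjusted p under 0.05). These calls are 68.2% of the list under DRF and 22.7% under NRF, against 4.69% and 2.0% of all genes. For the difference 3061 of all 25413 genes had an unadjusted p under 0.05. The median amplitude of the list was 0.39 under DRF and 0.24 under NRF. Maxima at both ZT4 and ZT16 were seen in 13 of the 22 under DRF, where 8.06% of all genes had them, and in 1 under NRF, where 10.5% did. The count under DRF stayed between 13 and 16 whichever single library was left out, while that under NRF fell to 3 without NRF ZT12 replicate 3.

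Hsph1, a cochaperone of HSP70 (chr5:149614287-149636376, GRCm38), showed the pattern in full. Under DRF its 4 livers at ZT4 read 72.7, 67.5, 70.3 and 96.2 scaled counts, those at ZT8 read 17.5, 13.8, 15.9 and 13.9, and those at ZT16 read 31.7, 33.9, 26.5 and 30.5. A second, lower rise thus stood at ZT16, above every liver of ZT8 and of ZT20 (13.3 to 21.3) and overlapping ZT12 (14.3 to 45.2) and ZT0. Under NRF the livers at ZT4 read 18.9, 6.48, 15.3 and 6.85, and those at ZT16 read 83.9, 99.5, 85.2 and 64.6. Every ZT16 liver stood above all other NRF livers, and the ZT4 livers overlapped those of ZT8 (5.32 to 8.71) and ZT12 (8.32 to 21.6). The 12-h amplitude was 0.98 ± 0.15 (SE) under DRF with an adjusted p of 6.19e-05 (limma, Benjamini-Hochberg), beside a 24-h amplitude of 0.33. Under NRF the corresponding values were 0.48 ± 0.15, 0.146 and 1.51.

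Hspa8, the constitutive cytosolic HSP70, followed the same course. Its DRF livers read 584, 544, 564 and 724 at ZT4, 154, 93.2, 174 and 116 at ZT8, and 398, 424, 257 and 296 at ZT16. The morning values stood clear of all other times, and the evening values lay above every ZT8 liver while overlapping those of ZT0, ZT12, ZT20 and ZT24. Its NRF livers read 542, 795, 725 and 508 at ZT16 and between 124 and 201 at ZT4. The amplitude was 0.75 ± 0.13 under DRF (adjusted p = 4.22e-04, limma, Benjamini-Hochberg) and 0.35 ± 0.13 under NRF (adjusted p = 0.285).

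Hsp90ab1, the constitutive cytosolic HSP90, had the smallest p of all genes under DRF and was called in both regimens. Under DRF the means were 402 ± 68.7 (SD, n = 4) at ZT4, 347 ± 43.7 at ZT8, 215 ± 23.5 at ZT12 and 279 ± 20.8 at ZT16. Its 4 livers at ZT16, 282, 287, 249 and 298, all lay above the 4 at ZT12, 200, 197, 217 and 248. Under NRF the high times were ZT16, with 335, 407, 375 and 388, and ZT20, with 346, 420, 404 and 451. No other NRF liver exceeded 267. The amplitude was 0.39 ± 0.04 (adjusted p = 1.48e-07) under DRF and 0.23 ± 0.04 (adjusted p = 0.00221) under NRF (limma, Benjamini-Hochberg), and the peaks fell at 5.43 and 6.36 h. The inducible Hspa1b had a DRF amplitude of 1.09 ± 0.21. Reads of the near-identical pair Hspa1a and Hspa1b may have been split between them in counting, so the level of each is uncertain. Stip1, which links HSP70 to HSP90, and Ahsa1, an activator of HSP90, had amplitudes of 0.55 ± 0.08 and 0.30 ± 0.04 under DRF and of 0.34 ± 0.08 and 0.16 ± 0.04 under NRF. Their NRF calls were lost in 3 and 5 of 56 cases when 1 library was left out, with adjusted p up to 0.0638 and 0.135.

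**Figure D1:**
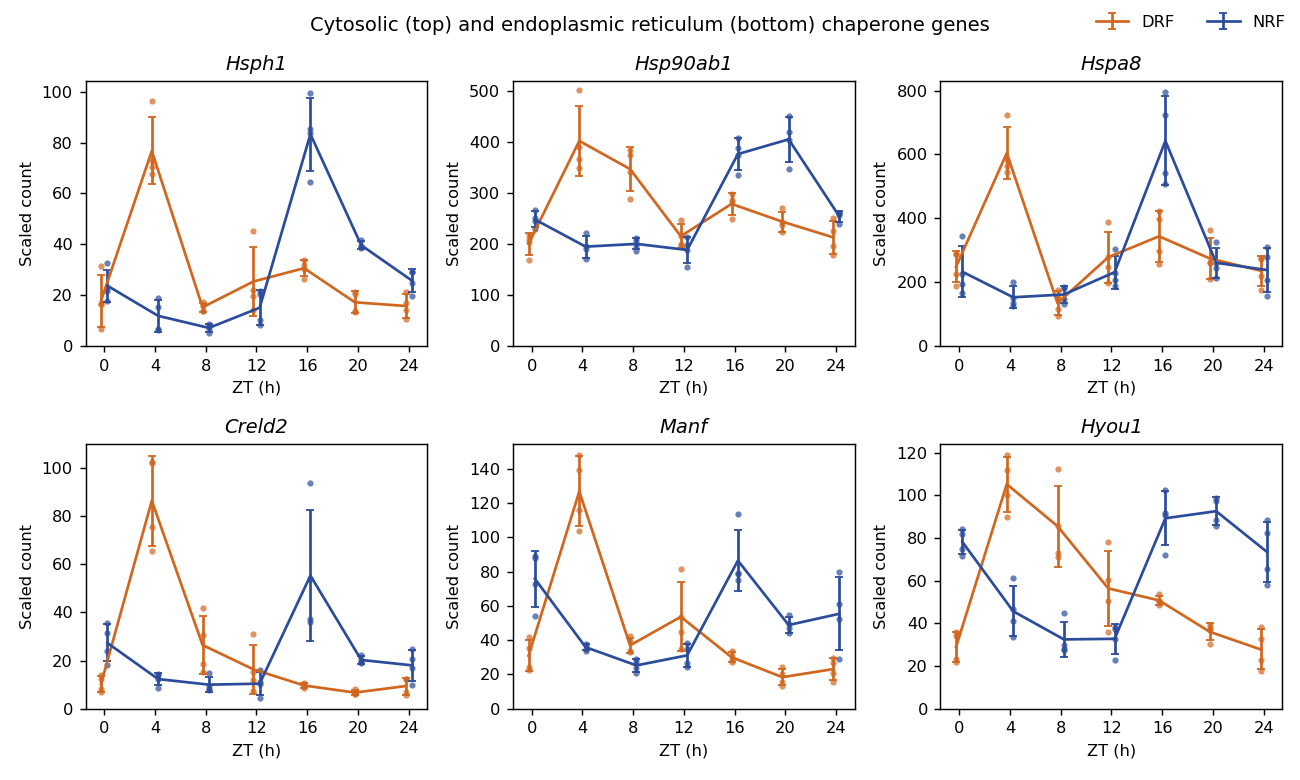
Scaled counts (vertical axes) against zeitgeber time in hours (horizontal axes) for 3 cytosolic and 3 ER chaperone genes, with a point per liver and lines and bars for the mean and SD of 4 livers, DRF in orange and NRF in blue. Hsph1, Hsp90ab1 and Hspa8 rose at ZT4 and again, less, at ZT16 under DRF, whereas Creld2, Manf and Hyou1 had their main DRF peak at ZT4 and no rise at ZT16.

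ER chaperones also carried a 12-h component under DRF. Of 34 genes listed for ER chaperones and the unfolded protein response, 18 were called under DRF, 0 under NRF and 0 for the difference (limma, 25, 9 and 13 at an unadjusted p under 0.05). The 18 are 52.9% of the list. Over all 25413 genes 4.69%, 2.0% and 0.106% were called, and 4366, 3551 and 3061 had an unadjusted p under 0.05. The DRF peaks of the 18 lay between 2.3 and 6.1 h, 15 of them between 3 and 6 h. The list's median amplitude was 0.20 under DRF and 0.07 under NRF, against 0.05 over all genes in each regimen. Over genes with a mean of at least 1 scaled count the median was 0.088 under DRF and 0.080 under NRF. The list's NRF median thus did not exceed that of such genes. Of all 34 members, 25 had a maximum at ZT4 under DRF and 5 at ZT16, with 3 holding both. Under NRF 16 had a maximum at ZT16 and 1 at ZT4. The 3 members with both maxima are near the 8.06% of all genes that had them under DRF. The list holds genes picked with earlier results of these data known, and its count is a description. The DRF count ranged from 12 to 20 over the libraries left out singly, and it was 3 without all libraries numbered replicate 1.

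Creld2, an ER protein induced with the unfolded protein response, had the largest amplitude of the list. Its DRF livers read 102, 75.6, 65.7 and 102 at ZT4 and 30.5, 41.8, 15.3 and 18.4 at ZT8, and at ZT16 they read 9.55, 8.73, 9.63 and 10.8. Under NRF the ZT16 livers read 36.0, 54.0, 93.9 and 37.3 and the ZT4 livers 14.3, 8.78, 14 and 12.3. The high time lay 12 h apart in the 2 regimens, and the high group overlapped no other group in either. The 12-h amplitude was 0.83 ± 0.16 under DRF (adjusted p = 0.00264) and 0.49 ± 0.17 under NRF (adjusted p = 0.219; limma, Benjamini-Hochberg), beside 24-h amplitudes of 1.37 and 0.90.

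Manf, a secreted ER-stress factor, read 148, 116, 104 and 139 at ZT4 under DRF and 42.3, 39.2, 33.4 and 32.9 at ZT8. At ZT12 it stood at 34.8, 44.9, 53.2 and 81.5, a small rise that overlapped ZT8, so the shape was sharp at ZT4. Under NRF it read 75, 78.5, 113 and 78.9 at ZT16 and between 54.1 and 88.8 at ZT0, so the ZT0 group overlapped the evening one. At ZT24, also lights on, its NRF livers read 28.7, 52.1, 79.65 and 61.1 and reached lower than those of ZT0. The 12-h amplitudes were 0.72 ± 0.13 and 0.38 ± 0.13. Hyou1, the large ER chaperone of the HSP70 family, had means of 105 ± 12.8 at ZT4, 85.6 ± 19.1 at ZT8 and 50.8 ± 2.13 at ZT16 under DRF (SD, n = 4). Its NRF means were 89.3 ± 12.6 at ZT16 and 92.6 ± 6.43 at ZT20, and its 12-h amplitude was 0.54 ± 0.08 under DRF and 0.19 ± 0.08 under NRF. Hspa5, the ER HSP70 known as BiP, had amplitudes of 0.52 ± 0.11 (adjusted p = 0.00606) and 0.42 ± 0.11 (adjusted p = 0.0727; limma, Benjamini-Hochberg). Its result under NRF is therefore not shown to differ from that under DRF, and its adjusted p for the difference was 0.872.

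The promoters of ER chaperones are known for the ER stress response element (ERSE), through which ATF6 and XBP1 act with NF-Y. Promoters of GRCm38.p6 from RefSeq, 250 bases before to 50 after each start, were searched on both strands for CCAAT followed after any 9 bases by CCACG. The element was found in 23 of 13072 promoters (0.176%), in 10 of 883 promoters of genes called under DRF (1.13%) and in 1 of 370 of those called under NRF (0.270%). Of 27 ER list members with a promoter, 9 held it, and 8 of these 9 were called under DRF, as were 8 of the other 18. The 9 are Calr, Canx, Creld2, Derl3, Dnajc3, Hsp90b1, Hspa5, Pdia6 and Syvn1, of which Derl3 was not called. The 3 promoters below are shown because they hold the element in genes with a DRF component, cut at the annotated gene start, with the element, in either orientation, in capitals.
Creld2, chr15:88819396-88819645, plus strand: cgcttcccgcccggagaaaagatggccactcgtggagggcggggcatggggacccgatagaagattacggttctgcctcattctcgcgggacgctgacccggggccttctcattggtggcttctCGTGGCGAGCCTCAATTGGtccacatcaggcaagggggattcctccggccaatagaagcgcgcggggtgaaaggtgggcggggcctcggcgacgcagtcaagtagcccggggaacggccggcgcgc
Hsp90b1, chr10:86705510-86705694, minus strand: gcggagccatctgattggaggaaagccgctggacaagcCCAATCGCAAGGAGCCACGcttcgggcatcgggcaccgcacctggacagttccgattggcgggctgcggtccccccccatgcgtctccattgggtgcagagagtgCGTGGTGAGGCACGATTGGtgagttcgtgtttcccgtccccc
Pdia6, chr12:17266339-17266544, plus strand: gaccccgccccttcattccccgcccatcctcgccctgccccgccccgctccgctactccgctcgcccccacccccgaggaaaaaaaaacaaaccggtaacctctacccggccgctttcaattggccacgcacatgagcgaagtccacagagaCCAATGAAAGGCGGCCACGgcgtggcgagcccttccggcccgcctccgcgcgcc
Creld2 and Pdia6 hold 1 match each, from base 125 and base 153 of the printed stretch, and Hsp90b1, the ER HSP90, holds 2, from base 39 and base 144. The DRF amplitude of Hsp90b1 was 0.21 ± 0.05 and that of Pdia6, a protein disulfide isomerase, 0.27 ± 0.05. A heat shock element, GAA, TTC and GAA with any 2 bases between each, was in 82 of 13072 promoters (0.627%) in 7 of the 883 (0.793%) and in 4 of 17 heat shock list promoters, those of Chordc1, Hspd1, Hspe1 and Hsph1. The palindrome CACGTG, an E-box bound by clock factors, was in 10.7% of all promoters, 12.3% of those called under DRF and 16.8% of those called under NRF, and a D-box spelled TTATGTAA in 0.857%, 0.906% and 1.35%. The last letters of the ER element can overlap the first of an E-box. Also searched were TGACGTG (core of the unfolded protein response element, UPRE), TGACGTCA (cAMP response element, CRE) and CCGGAAG (ETS site). The UPRE core was in 3.045% of all promoters, 3.511% of those called under DRF and 2.973% of those called under NRF. For CRE the shares were 3.083%, 3.398% and 2.162%, and for ETS 17.12%, 19.03% and 12.97%. Of the 27 ER list promoters 1 held the UPRE core, 0 CRE and 7 ETS. None of these shares was tested, and a match is a description of letters only.

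Genes of protein translocation and ER-to-Golgi transport also held members with a DRF component. Of 44 members, 16 were called under DRF, 1 under NRF (Sec24d) and 0 for the difference (limma, 15 at an unadjusted p under 0.05), and all 16 peaked between 3.0 and 5.5 h. The calls are 36.4% of the list under DRF and 2.27% under NRF, against 4.69% and 2.0% of all genes. For the difference 3061 of all 25413 genes had an unadjusted p under 0.05. On the values as deposited 1 of the 44 was called under DRF. The DRF count was 8 without DRF ZT4 replicate 1, 10 without replicate 2 and 8 without replicate 4 of that group. The 16 included Sec61a1, the channel of the translocon, Copg1, a coat protein of Golgi vesicles, and Sec23b, a coat protein of vesicles leaving the ER. Sec23b had amplitudes of 0.46 ± 0.08 (adjusted p = 0.00158) under DRF and 0.30 ± 0.08 (adjusted p = 0.0981) under NRF (limma, Benjamini-Hochberg). Sec24d, its partner in the coat, had 0.24 ± 0.05 and 0.23 ± 0.05, both past the threshold, with 24-h amplitudes of 0.02 and 0.21. Its NRF call (adjusted p = 0.0355, limma, Benjamini-Hochberg) was lost in 8 of 56 cases when 1 library was left out, each time an NRF library, with adjusted p up to 0.0863. Aminoacyl-tRNA synthetases, Aars, Nars and Wars, were the 3 of 27 genes of the integrated stress response and serine synthesis called under DRF, and 0 were called under NRF (limma, 4 at an unadjusted p under 0.05). Under DRF 9 of the 27 had an unadjusted p under 0.05, against 4366 of all 25413 genes. Under NRF 3551 of all genes did. The 3 DRF calls are 11.1% of the list, against 4.69% of all genes and 7.77% of genes with a mean of at least 1 scaled count.

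**Figure D2:**
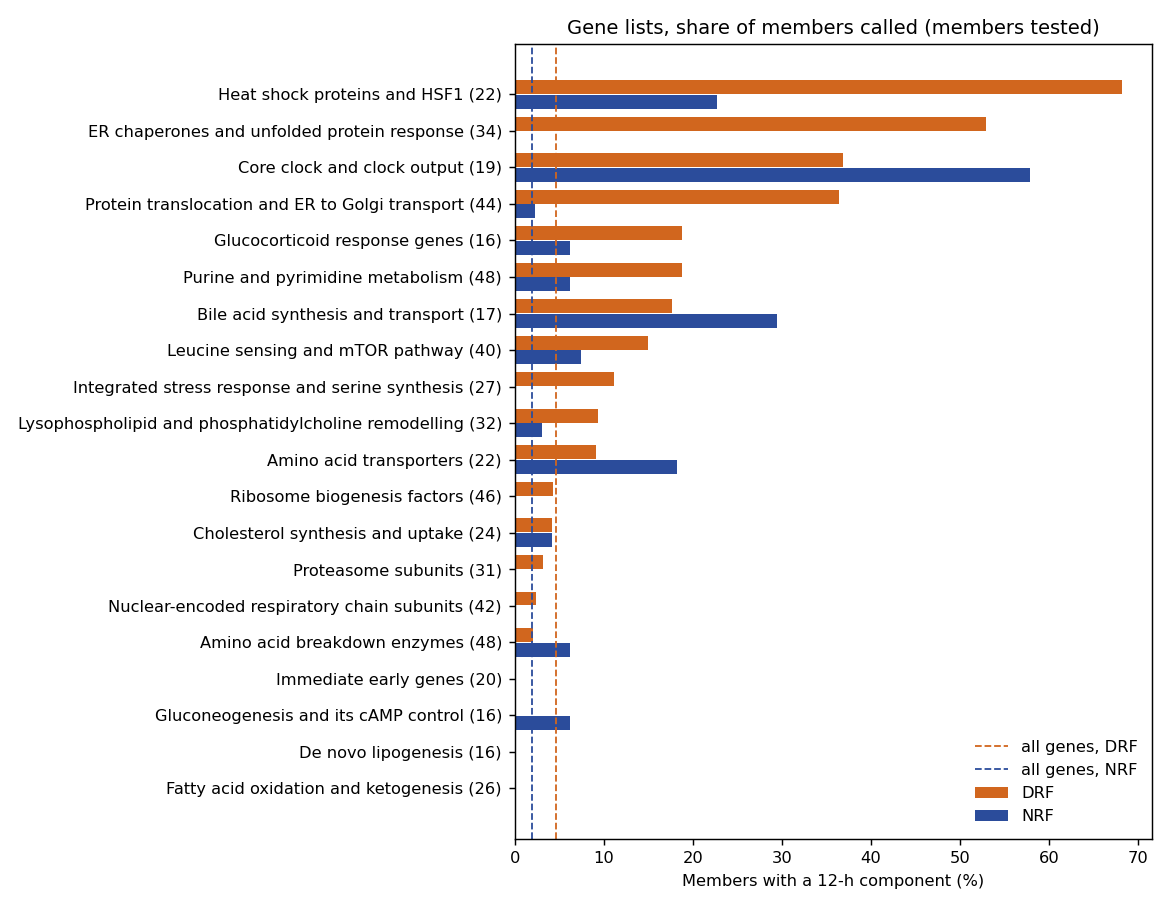
Percentage of the members of each gene list with a 12-h component (horizontal axis), with the number of members tested in parentheses, DRF in orange and NRF in blue. Dashed lines mark the share over all genes, 4.69% under DRF and 2.0% under NRF. The largest DRF shares are those of heat shock (68.2%), ER chaperone (52.9%), clock (36.8%) and ER transport genes (36.4%). The largest NRF shares are those of clock (57.9%) and bile acid genes (29.4%). Over genes with a mean of at least 1 scaled count, 7.77% under DRF and 3.29% under NRF were called.

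Clock genes carried 12-h components in both regimens. Of 19 core clock and clock output genes, 7 were called under DRF (36.8%), 11 under NRF (57.9%) and 1, Arntl, for the difference (5.26%). Over all genes the shares were 4.69%, 2.0% and 0.106%. The median amplitude was 0.21 under DRF and 0.33 under NRF. In maxima of the time means, 0 of the 19 had maxima at both ZT4 and ZT16 in either regimen. Dbp, a PAR bZIP activator and direct clock target, was called in both. Under NRF it read 0.505, 0.410, 0.251 and 0.260 at ZT0, 34.5, 37.2, 58.1 and 42.1 at ZT8, and 45.7, 59.9, 40 and 43.6 at ZT12. Under DRF the high group was ZT0, with 35.2, 42.1, 39.8 and 38.5, and the lowest was ZT16, with 1.08, 1.97, 2.22 and 3.22. At ZT24, also lights on, the DRF livers read 35.0, 24.6, 34.7 and 28.1. Groups at the top and bottom of each wave did not overlap. Of its exon bases 18.0% are shared with a gene on the opposite strand. Its 12-h amplitudes were 0.50 ± 0.08 (adjusted p = 3.21e-04) and 0.82 ± 0.09 (adjusted p = 6.12e-08) beside 24-h amplitudes of 1.71 and 2.74 (limma, Benjamini-Hochberg). Per1, Cry2 and Ciart were also called in both regimens, while Per3, a period gene, had 0.30 ± 0.08 under DRF (adjusted p = 0.0528) and 0.71 ± 0.08 under NRF. Per2 was called in neither, with adjusted p of 0.107 and 0.236.

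The other lists ranged from no call to shares well above the 4.69% and 2.0% over all genes. Over genes with a mean of at least 1 scaled count the shares were 7.77% under DRF and 3.29% under NRF. Amino acid transporters under DRF (9.1%) and lysophospholipid genes (9.4% and 3.1%) lay near these shares. Bile acid genes were called in 3 of 17 under DRF (17.6%) and 5 under NRF (29.4%), among them Abcg5 and Abcg8, which form the canalicular sterol exporter and were called in both. The NRF call of Abcg5 (adjusted p = 0.0445, limma, Benjamini-Hochberg) was lost in 19 of 56 cases when 1 library was left out, each time an NRF library, with adjusted p up to 0.110, and that of Abcg8 in 0 of 56. Amino acid transporters were called in 2 of 22 and 4, with Slc38a4 in both (its DRF call was lost without DRF ZT4 replicate 1, 3 or 4, with adjusted p up to 0.107), and Slc38a2, Slc7a2 and Slc7a5 peaking between 11.1 and 11.6 h under NRF. Purine and pyrimidine genes were called in 9 of 48 and 3, including Cad, the first enzyme of pyrimidine synthesis, with 0.42 ± 0.07 under DRF. Leucine sensing and mTOR genes were called in 6 of 40 (3 without DRF ZT4 replicate 4) and 3. Mtor itself had 0.15 ± 0.03 and 0.14 ± 0.03 with peaks at 10.6 h in both regimens, but its NRF call was lost in 11 of 56 cases when 1 library was left out, with adjusted p up to 0.136. Glucocorticoid response genes were called in 3 of 16 and 1, lysophospholipid genes in 3 of 32 and 1, and amino acid breakdown enzymes in 1 of 48 (Glud1) and 3 (Bcat2, Gldc and Amt). Cholesterol synthesis genes were called in 1 of 24 and 1, ribosome biogenesis factors in 2 of 46 and 0, respiratory chain subunits in 1 of 42 and 0, and proteasome subunits in 1 of 31 and 0 (limma; under NRF 9, 0 and 4 of these 3 lists at an unadjusted p under 0.05). Gluconeogenesis genes were called in 0 of 16 and 1 (Sik1). None of 26 fatty acid oxidation genes, 16 lipogenesis genes or 20 immediate early genes was called in either regimen (limma; at an unadjusted p under 0.05, 4, 6 and 3 under DRF and 4, 3 and 2 under NRF). These counts of 0 do not show that the component is absent.

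The time of the peak fell into 2 ranges. Under DRF 469 of 1193 genes peaked between 3 and 6 h after lights on (and 12 h later) and 504 between 9 and 12 h. Under NRF 94 of 509 peaked between 3 and 6 h and 247 between 9 and 12 h. Genes of the 2 DRF ranges differed in length, with a median exon length of 3672 bases in the earlier and 6467 in the later. Over all genes the median was 2454 bases. With a mean of at least 1 scaled count required, the medians were 3928 and 6803, against 3946.5 over the genes tested. Libraries also differed in how their values depended on gene length. An index of this was the rank correlation across genes of a library's deviations with exon length. Its 12-h amplitude was 0.091 ± 0.029 (SE) under DRF with a peak at 11.4 h, and 0.029 ± 0.046 under NRF. ZT0 and ZT24 are the same clock time, yet the index ran from -0.196 to -0.0635 at ZT0 and from 0.112 to 0.249 at ZT24 under DRF. Under NRF it ran from -0.321 to 0.0317 and from 0.0554 to 0.262. The index thus also changed along the sampling series, which neither a 12-h nor a 24-h wave describes. The cause was not tested. After a smooth trend on length was removed from each library, 479 and 500 DRF genes fell in the ranges and their median lengths were 4775 and 5009 bases. Under NRF the same step gave 124 and 146 genes, and scaling by median-of-ratios size factors gave 128 and 146. The excess of late peaks under NRF therefore depends on the scaling. The part of gene length in the single calls was not tested further.

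**Figure D3:**
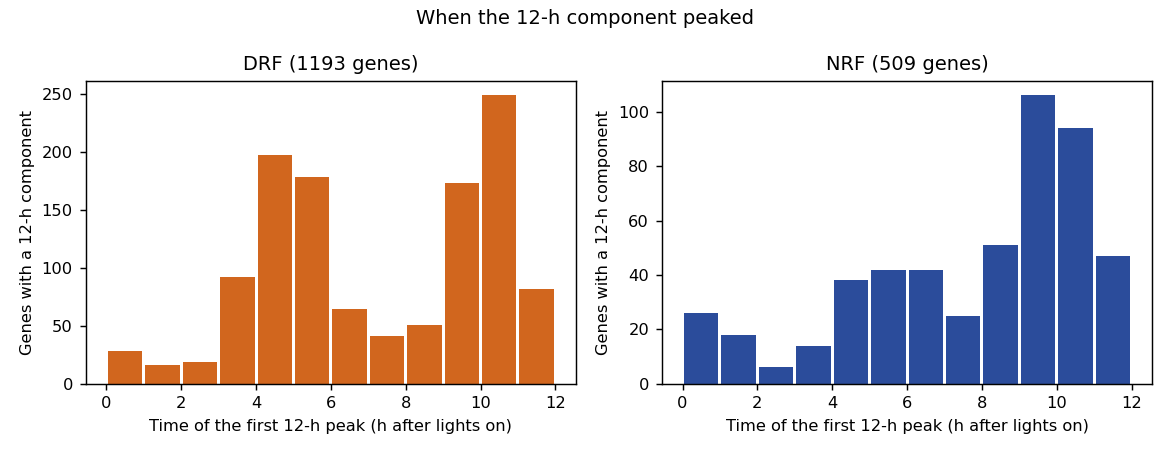
Number of genes with a 12-h component (vertical axes) by the time of the first 12-h peak in 1-h bins (horizontal axes, hours after lights on), for DRF (left) and NRF (right). Under DRF 198 genes peaked between 4 and 5 h and 249 between 10 and 11 h, and under NRF the highest bin was 9 to 10 h with 106 genes.

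Genes called in both regimens mostly peaked at the same clock times. They numbered 132, which is 11.1% of the DRF genes and 25.9% of the NRF genes. In 111 of them (84.1%) the DRF and NRF peaks lay within 2 h of each other, and in 5 they were over 3 h apart. Over all genes with a mean of at least 1 scaled count this share was 40.6%. Among the 1061 genes called under DRF and not under NRF, 61.1% had peaks within 2 h. Their median amplitude was 0.08 under NRF and 0.19 under DRF. Among the 377 called under NRF and not under DRF, 62.6% did, with medians of 0.08 under DRF and 0.19 under NRF. Each gap in amplitude follows from choosing genes by their calls and does not compare the regimens. Examples called in both are Zfyve26, with amplitudes of 0.26 ± 0.03 and 0.25 ± 0.03 and peaks at 9.46 and 8.94 h, and Tubb2a, a tubulin, with 0.54 ± 0.07 and 0.52 ± 0.07 and peaks at 4.62 and 4.92 h. On linear scaled counts Tubb2a passed in neither regimen (adjusted p = 0.840 and 0.606, limma, Benjamini-Hochberg), and its NRF component turned in direction. Cyp26b1, which breaks down retinoic acid, had the largest DRF amplitude of all named genes. It read 38.8, 9.63, 35.6 and 64.3 at ZT4, 47.1, 30.5, 71.9 and 13.5 at ZT16 and 4.98, 17.7, 9.44 and 6.40 at ZT12 under DRF. At ZT16 under NRF it read 78.0, 29.6, 31.8 and 27.3, and at ZT4 61.1, 5.42, 15.8 and 19.4. Its groups overlapped widely, and rises at ZT4 and ZT16 were seen in the means of both regimens. The amplitudes were 1.15 ± 0.28 (adjusted p = 0.0217) and 1.13 ± 0.29 (adjusted p = 0.0528; limma, Benjamini-Hochberg), and the DRF call was lost without any of DRF ZT4 replicate 1 or 4 or DRF ZT16 replicate 1 or 3, with adjusted p up to 0.0774.

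**Figure D4:**
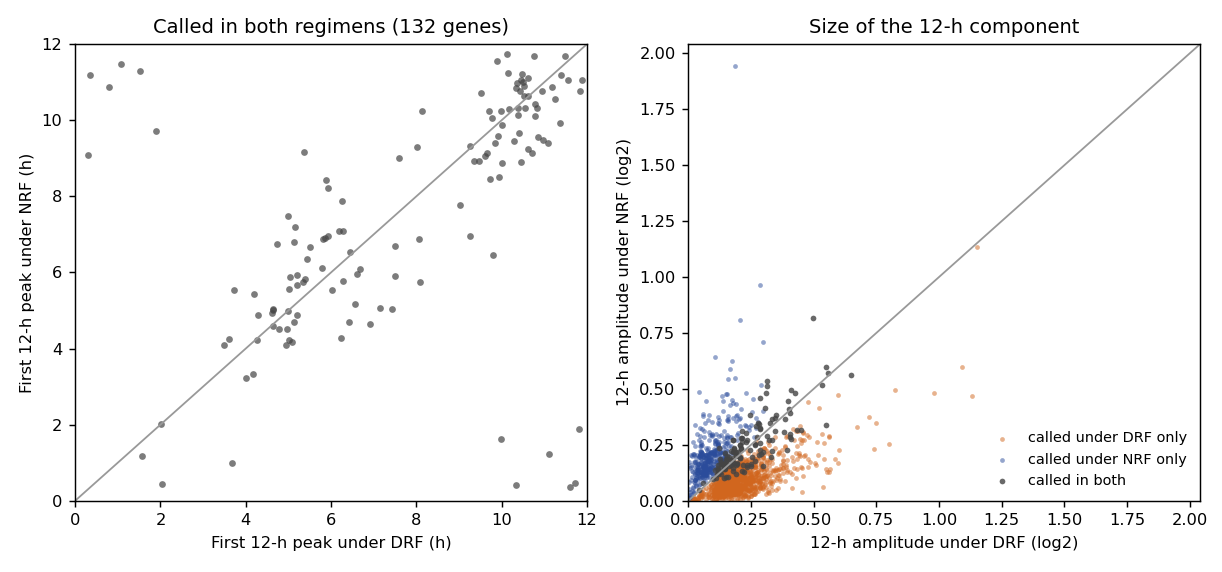
Left, time of the first 12-h peak in hours under DRF (horizontal axis) and NRF (vertical axis) for the 132 genes called in both, with the line of equal times. Right, 12-h amplitude in log2 units in each regimen for all called genes, with the line of equal amplitudes, where the single point near 1.94 under NRF is mt-Co3.

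The gene with the largest NRF amplitude, mt-Co3, rested on few libraries. This mitochondrially encoded subunit of cytochrome c oxidase read 140, 199, 0.133 and 139 at ZT4 under NRF. It was above 1 scaled count in 6 libraries in all and at or below 0.378 in the other 50. Its NRF amplitude of 1.94 ± 0.42 (adjusted p = 0.0161, limma, Benjamini-Hochberg) was not past the threshold without any 1 of the 3 high ZT4 livers.

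A difference of the 12-h component between regimens was detected in 27 genes (0.106%), against 3061 at an unadjusted p under 0.05. The peaks lay over 3 h apart in 24 of the 27, and the amplitude was larger under DRF in 13 and under NRF in 14. The test of the difference favours genes with opposed peaks, so the wide gaps follow in part from the choice of genes. A peak time is also poorly set where an amplitude is near its SE, as in Dnajb2 and Herc3 under NRF. The count is sensitive to single animals, since it was 162 without NRF ZT16 replicate 4, 5 without DRF ZT4 replicate 4, 6 without NRF ZT16 replicate 1 and 7 without DRF ZT4 replicate 1. It was 11, 43 and 14 without NRF ZT4 replicates 1, 2 and 4, 49 and 12 without NRF ZT16 replicates 2 and 3, 49 without NRF ZT20 replicate 1 and 16 without DRF ZT12 replicate 1. Of the 14 named genes called here, Arntl, Cln8, Sbk1 and Dnajb2 kept the call whichever library was left out.

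Cln8, an ER membrane protein that loads lysosomal enzymes for export, had the smallest p. Under NRF it had a single sharp peak at ZT12 with 11.1, 14.5, 17.5 and 16.5, and all other NRF livers lay at or below 11.3, so that only the lowest ZT12 liver overlapped them. Under DRF the peak was broad, with 13.8, 15.7, 14.8 and 15.1 at ZT20 and means of 11.4 ± 0.596 at ZT16 and 11.8 ± 1.06 at ZT24 (SD, n = 4). The 12-h amplitude was 0.22 ± 0.03 under NRF and 0.11 ± 0.04 under DRF, with peaks at 0.05 and 7.46 h and an adjusted p of 0.00800 for the difference (limma, Benjamini-Hochberg).

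Sbk1, a kinase gene, read 20.8, 20.4, 20 and 15.8 at ZT0, 20.1, 20.4, 22.4 and 23.9 at ZT4 and 8.63, 6.73, 7.86 and 9.75 at ZT12 under DRF. Under NRF it read 14.7, 19.6, 20.4 and 18.5 at ZT12 and 9.69, 6.31, 7.78 and 5.34 at ZT4. High and low groups did not overlap within either regimen, and the order of ZT4 and ZT12 was inverted between the regimens. At ZT24, the clock time of ZT0, the DRF livers read 13.6, 16.3, 17.2 and 15.3. They reached lower than those of ZT0 and overlapped those of ZT16 (12.5 to 14.9). These readings hold the 24-h wave as well, so the inversion alone does not show a 12-h difference. The amplitudes were 0.29 ± 0.06 and 0.23 ± 0.06 with peaks at 4.79 and 10.9 h (adjusted p = 0.0101 for the difference, limma, Benjamini-Hochberg).

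Arntl, which encodes the clock activator BMAL1, differed in amplitude, 0.29 ± 0.08 under DRF and 0.96 ± 0.08 under NRF (adjusted p = 0.0104 for the difference, limma, Benjamini-Hochberg). At its NRF trough, ZT12, the livers read 1.41, 1.53, 1.07 and 1.49, while ZT8 held 6.72, 6.26, 2.73 and 3.77 and ZT24 held 73.2, 72.5, 73.1 and 81.2. At its DRF trough, ZT0, they read 7.65, 6.29, 6.32 and 6.82, and the high times ZT8, ZT12 and ZT16 had means of 56.2, 57.3 and 60.1. At ZT24, also lights on, the DRF livers read 9.10, 11.9, 10.5 and 9.98, all above those of ZT0. The NRF trough was thus deeper than the DRF one, with no overlap of the livers. On linear scaled counts neither the NRF component nor the difference of Arntl passed the threshold, so its result belongs to the log scale.

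Dnajb2, an HSP40 cochaperone of the cytosol and ER membrane, had 12-h amplitudes of 0.31 ± 0.04 under DRF and 0.03 ± 0.04 under NRF (adjusted p = 0.0104 for the difference, limma, Benjamini-Hochberg). Its DRF livers read 8.57, 7.70, 8.26 and 9.06 at ZT4, 4.83, 4.71, 5.25 and 4.34 at ZT12, and 5.91, 6.04, 5.40 and 6.64 at ZT16. The 2 rises were separate, with every ZT16 liver above every ZT12 and ZT20 liver. Under NRF the means rose from 4.30 at ZT12 to 6.30 at ZT20 and 6.15 at ZT0, a single broad wave.

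Herc3, an E3 ubiquitin ligase gene, was low at both ZT4 and ZT16 under DRF, with 1.81, 2.03, 1.91 and 1.67 at the first and 1.79, 1.96, 2.02 and 1.95 at the second. At ZT8 it read 3.27, 4.60, 3.60 and 4.10, and at ZT20 3.25, 2.06, 3.29 and 3.47, which leaves the lows clear of the highs at ZT8 and at ZT20. Under NRF it had 1 wave, with 4.72, 4.94, 4.72 and 4.28 at ZT8 and means of 2.34 and 2.27 at ZT16 and ZT20. The amplitudes were 0.42 ± 0.05 under DRF and 0.06 ± 0.05 under NRF, beside 24-h amplitudes of 0.08 and 0.42. The adjusted p for the difference was 0.0300 (limma, Benjamini-Hochberg), and 4 of 56 single libraries ended that call when left out, with adjusted p up to 0.0686.

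Slc5a6, the vitamin transporter for biotin and pantothenate, had peaks at nearly the same times, 11.5 and 10.8 h, and differed in size, 0.14 ± 0.04 under DRF against 0.45 ± 0.04 under NRF. Its NRF livers read 11.4, 13.7, 17.1 and 11.3 at ZT12, and between 2.02 and 3.47 at ZT0, ZT4, ZT20 and ZT24. Aprt, which salvages adenine, had components of like size, 0.17 ± 0.04 and 0.22 ± 0.04, with peaks at 5.36 and 9.16 h. At ZT4 it read 5.38, 4.83, 5.50 and 6.08 under DRF and 2.44, 2.98, 3.53 and 3.17 under NRF, with no overlap. The 24-h wave is part of these readings, so the gap at ZT4 does not by itself show a 12-h difference. The adjusted p for the difference was 0.0300 for Slc5a6 and 0.0209 for Aprt (limma, Benjamini-Hochberg), and leaving out single libraries ended the call in 7 and 3 of 56 cases, with adjusted p up to 0.0686 and 0.0632.

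**Figure D5:**
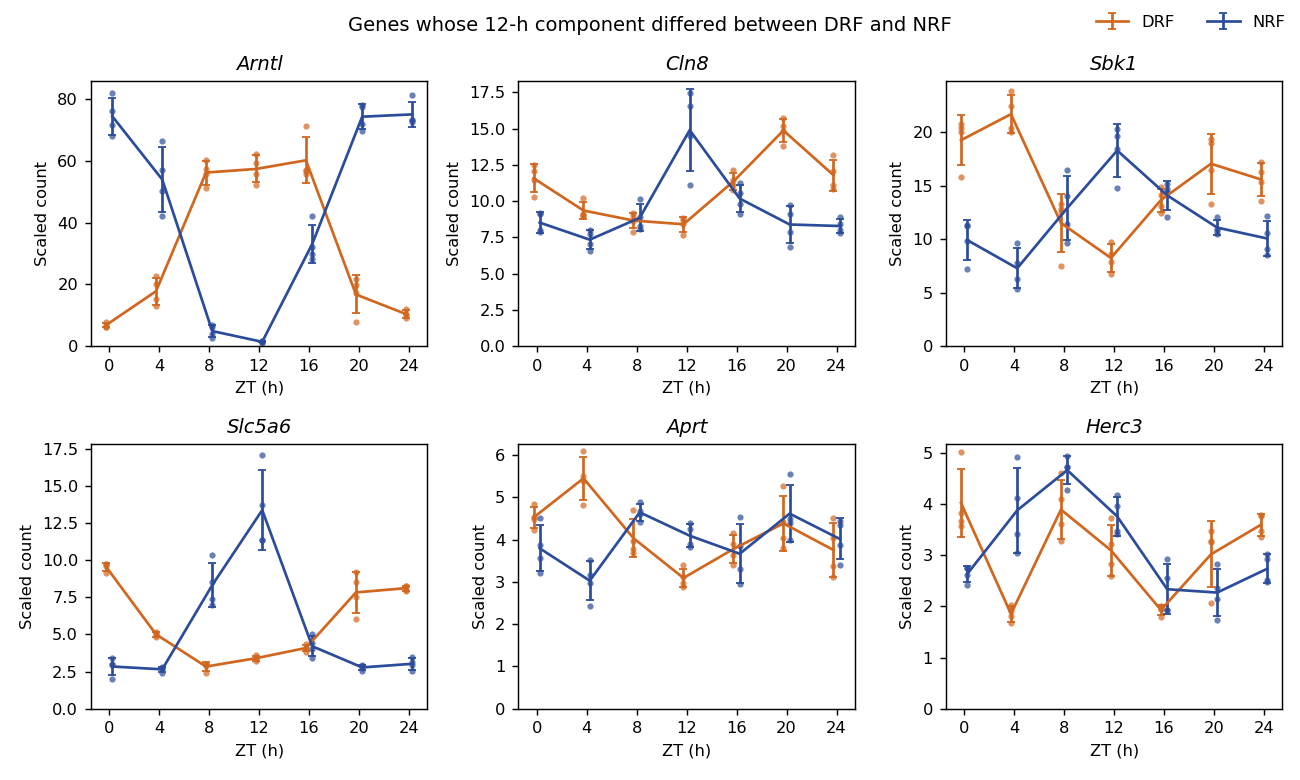
Scaled counts (vertical axes) against zeitgeber time in hours (horizontal axes) for 6 genes called for the difference of the 12-h component, with a point per liver and lines and bars for the mean and SD of 4 livers, DRF in orange and NRF in blue. Cln8 and Slc5a6 show a sharp NRF peak at ZT12, and Herc3 is low at both ZT4 and ZT16 under DRF. Sbk1 and Aprt are high under DRF and low under NRF at ZT4, in values that hold the 24-h wave too.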

How the data were processed

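RNA of 56 livers was sequenced after removal of rRNA by a strand-specific protocol, although the labels name the molecule polyA RNA. Per the submitters' processing notes the builds were mm10 and GRCm38.p6 and the tools CASAVA 1.8 and featureCounts 1.5.0-p3; whether counting used strand is not given in the sources used here. The authors deposited gene values named TPM, treated here as a score, because value times exon length follows the logarithm of a count scaled per library. That logarithm was undone with GENCODE exon lengths. In genes left out of the fit of each library's scale, 99.1% of recovered counts up to 10 were whole within 0.05. Of recovered counts between 1000 and 20000, 96.6% were, where chance gives 10%. The recovered counts exceed any likely number of reads, so they were not used as reads and no count test was run. Fold sizes therefore rest on this recovery, and the same fit on the values as deposited is given among the alternatives. The circRNA and transcript tables were not used.

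Each gene was fitted across all 56 libraries with limma 3.58.1 in R 4.3.3, with a mean and cosine and sine terms of 24 and 12 h per regimen. Moderated F tests with 2 degrees of freedom gave p-values, adjusted by Benjamini-Hochberg over 25413 genes, with a threshold of 0.05 and a pseudocount of 1. Times of peaks are given modulo 12 h. Named genes had a mean of at least 1 scaled count and were those with the largest amplitudes or smallest adjusted p in each test, those called in both regimens, the leading members of each list, and Arntl, Nr1d1, Dbp and Per2. Hsp90b1 and Pdia6 were named for their promoter element, after values were seen. The members, lists and tests were chosen with earlier results of these data known. Of 596 list entries in 20 gene lists, 590 were found. Alternatives changed the scaling, pseudocount, filter, variance model, times, harmonics, length correction, block and libraries left out. Samples with the same replicate number had a mean correlation of 0.00424 in their deviations, with 36 of 364 pairs over 0.1, so the numbers were not used as pairs.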

Additional observations from a re-analysis of the deposited data

Results flagged for a closer look

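In groups of 4 livers, 15 of 224 groups tested among the genes shown by liver held a value far from the other 3, where chance gives about 5% of groups. The high values were 12.3 scaled counts of Cyp26b1 in DRF ZT20 replicate 2 and 78.0 in NRF ZT16 replicate 1, 113 of Manf in NRF ZT16 replicate 3, 44.7 of Hyou1 in NRF ZT8 replicate 3, 7.47 of Dnajb2 in NRF ZT0 replicate 3 and 10.2 of Cln8 in DRF ZT4 replicate 4. Arntl stood high with 71.2 in DRF ZT16 replicate 1 and 81.2 in NRF ZT24 replicate 4. The low values were 239 of Hsp90ab1 in NRF ZT24 replicate 2, 2.06 of Herc3 in DRF ZT20 replicate 2, and 15.8 and 7.45 of Sbk1 in DRF ZT0 replicate 4 and DRF ZT8 replicate 2. The mitochondrial mt-Co3 read 14.9 in DRF ZT0 replicate 2, 38.4 in NRF ZT12 replicate 2 and 7.64 in NRF ZT16 replicate 3.

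The 12-h component differed between DRF and NRF, by the test of the difference in limma with Benjamini-Hochberg adjustment, in 14 named genes. The adjusted p was 0.00800 for Cln8, 0.0101 for Sbk1, 0.0104 for both Arntl and Dnajb2, 0.0153 for Creld1 and 0.0209 for Aprt. It was 0.0300 for Slc5a6, Fam47e, Stbd1, Herc3, Farp1 and Zfp458, 0.0309 for Shank2 and 0.0344 for Syne1. Whichever single library was left out, the call was kept in 4 of the 14, and the same held for 47 of 63 named calls of a 12-h component under DRF and 33 of 51 under NRF.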

How the results depend on the processing

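On the values as deposited, 472 genes had a 12-h component under DRF, 179 under NRF and 7 differed between regimens, and the heat shock, ER chaperone, ER transport, clock, purine and mTOR lists held 12, 6, 1, 3, 3 and 1 members called under DRF in place of 15, 18, 16, 7, 9 and 6. With each regimen fitted alone, 193 were called under NRF. The count of differences was 62 with a mean of at least 1 scaled count required, 65 with an 8-h cosine term and 17 with the length correction. An alternative chosen after seeing the data, without the 2 libraries farthest from their group means, gave 311 under NRF, 1375 under DRF and 24 differences. Leaving out a replicate number or a single library gave 307 to 1302 genes under DRF, 140 to 767 under NRF and 1 to 162 differences. Without the ZT0 libraries the counts were 1706 under DRF, 684 under NRF and 22 differences. Without the ZT24 libraries, taken at the same clock time, they were 1081, 587 and 33. A linear time term in the fit gave 1287, 612 and 40. The replicate block gave 1166, 513 and 37, and since the numbers do not pair the animals this is a check only; 17 of 56 libraries correlated best with their own number. Of the values of single named genes under the other alternatives, 6301 kept their side of the threshold, 422 lost it, 108 gained it and 1 reversed, Tubb2a under NRF on linear scaled counts (amplitude 4.73, adjusted p = 0.606 by limma with Benjamini-Hochberg). The causes were not tested. Sampling every 4 h limits a 12-h wave to 3 times per cycle.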
